A study of Homo sapiens with 16 samples.

Results

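The cytosolic heat shock genes examined were HSF1, HSPA1A, HSPA1B, HSPA8, HSPH1, DNAJB1, DNAJA1, HSP90AA1, HSPB1 and BAG3, 10 of the 63677 genes listed for each library. They were found by gene symbol, as the heat shock factor HSF1 and 9 chaperones or co-chaperones known as its targets. Poly(A) RNA was sequenced from MiaPaCa2 and PANC1 (Mia-PaCa-2 and PANC-1 in the sample labels), established human lines from pancreatic ductal adenocarcinomas. Each line was kept for 24 hours without drug (control), with 40 nM gemcitabine, a nucleoside analogue given as chemotherapy, with 50 µM genistein, an isoflavone of soy, or with both (co-treatment). The 8 groups held 2 libraries each, replicates I and II, described as biological replicates, so the p-values measure the spread between cultures of a single line. No gene was altered in either line for this experiment, and all groups grew in the same medium with fetal bovine serum. The vehicle of the control cultures was not given in the sources used here. A line grown alone carries no stroma, vessels or immune cells.

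HSF1 is the main transcription factor of the heat shock response. In unstressed cells it is held inactive by chaperones, and when unfolded protein occupies these, HSF1 forms trimers, binds heat shock elements in promoters and switches on chaperone genes. HSPA8 is the constitutive HSP70 of the cytosol and HSPA1A and HSPA1B encode its inducible relatives. DNAJB1 and DNAJA1 are HSP40 co-chaperones that deliver clients and stimulate the HSP70 ATPase, HSPH1 (HSP110) is a nucleotide exchange factor for HSP70, and BAG3 joins HSP70 to small heat shock proteins and to selective autophagy. HSP90AA1 is the stress-inducible cytosolic HSP90, which matures kinases and steroid receptors, and HSPB1 (HSP27) is a small heat shock protein that binds unfolding clients without ATP. Tumour cells are known to keep many of these genes active without heat.

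The heat shock element is a row of alternating GAA and TTC units. Promoters of some members that held matches are shown, as a view of the feature that gave the group its name. Members without a match are not shown. RefSeq promoter windows on GRCh38.p14, from 250 bases before to 50 bases after a transcript start, were found for 9 members, with 12 windows in all (HSF1 was not looked at). A pair of units was searched as GAANNTTC or TTCNNGAA and a run of 3 units as GAANNTTCNNGAA or TTCNNGAANNTTC, on both strands, and each 3-unit match holds 2 overlapping pairs. Pairs occurred in a window of 7 members and 3-unit runs in a window of 3 (HSPA8, HSP90AA1 and DNAJA1). Among all 35116 promoter windows of the same length, 13.5% held a pair and 0.49% a 3-unit run. These shares are per window, whereas a member was counted if any of its windows matched, so the units differ. Below, capitals mark the matches and the last base of each sequence is the base before the start, except in HSPB1, where the last 100 bases before the start are left out.
HSPA8, chr11:123062137-123062386, minus strand: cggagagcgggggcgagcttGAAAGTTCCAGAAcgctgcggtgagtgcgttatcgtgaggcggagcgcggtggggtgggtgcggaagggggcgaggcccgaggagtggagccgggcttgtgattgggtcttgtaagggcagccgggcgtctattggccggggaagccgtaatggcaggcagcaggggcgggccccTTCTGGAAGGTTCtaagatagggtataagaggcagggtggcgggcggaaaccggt
HSP90AA1, chr14:102087045-102087164, minus strand: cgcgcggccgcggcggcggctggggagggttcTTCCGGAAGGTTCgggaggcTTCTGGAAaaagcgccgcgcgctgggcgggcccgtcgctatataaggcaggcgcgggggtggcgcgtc
HSPA1A, chr6:31815413-31815542, plus strand: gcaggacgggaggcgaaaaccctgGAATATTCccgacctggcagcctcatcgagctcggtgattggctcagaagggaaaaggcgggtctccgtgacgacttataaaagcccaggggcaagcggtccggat
HSPA1B, chr6:31827608-31827737, plus strand: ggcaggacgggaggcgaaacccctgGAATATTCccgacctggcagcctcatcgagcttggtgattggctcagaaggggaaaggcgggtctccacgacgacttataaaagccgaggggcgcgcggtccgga
DNAJB1, chr19:14518398-14518497, minus strand: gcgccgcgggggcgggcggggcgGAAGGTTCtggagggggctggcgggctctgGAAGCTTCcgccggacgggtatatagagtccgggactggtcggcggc
HSPB1, chr7:76302473-76302572, plus strand: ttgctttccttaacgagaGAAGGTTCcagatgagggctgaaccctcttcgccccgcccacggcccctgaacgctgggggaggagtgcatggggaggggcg

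HSPA8 held 3-unit runs that began at positions -230 and -55, the latter close to its TATA-like stretch, and HSP90AA1 held one at -88 followed by a pair at -68. The single pair of HSPA1A began at -106 and that of HSPA1B at -105, in windows that were identical at 277 of 299 aligned bases (92.6%). DNAJB1 had pairs at -77 and -47 in the window shown and HSPB1 one at -182. For DNAJB1 and HSP90AA1, which have several windows, the window shown was chosen because it held matches. The DNAJB1 window at chr19:14529222-14529521 and the HSP90AA1 window at chr14:102139700-102139999 held 0 pairs. A further DNAJB1 window held a pair that began at base 2 of the transcript. In DNAJA1 the 3-unit run began at base 4 of the transcript. No pair was found in the windows of HSPH1 and BAG3, which says only that these letters were absent from these 300 bases.

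Library depth ran from 12943482 to 31991860 counts. All 10 members passed the low-count filter in every model, among 16064 genes tested in MiaPaCa2, 16909 in PANC1 and 17863 with the lines together. Between replicates, counts over genes differed by more than sampling noise in every group (chi-square per degree of freedom 2.70 to 32.03, the highest in the PANC1 controls), so replicates I and II of a group were not copies of each other. Libraries of different groups were not compared in this way. The slope of log2 counts on GC content, per 10 percentage points, was -0.24 and -0.15 in the MiaPaCa2 controls, 0.00 and -0.16 with genistein, 0.15 and 0.06 with gemcitabine and 0.05 and 0.30 in co-treatment, and in PANC1 it ran from -0.16 to 0.30, with 0.30 and -0.08 in the 2 controls. Of the epithelial and ductal markers, 3 of 6 in MiaPaCa2 and 6 of 6 in PANC1 exceeded 1 FPKM (a level scaled by transcript length and library size) in every library. KRT8, KRT18 and KRT19 had 56.5 FPKM or more in every library of both lines. In MiaPaCa2 KRT7 had 0.170 to 1.70 FPKM, CDH1 at most 0.0213 and EPCAM 0 in every library. Of the mesenchymal markers, 2 of 3 in MiaPaCa2 and 3 of 3 in PANC1 exceeded 1 FPKM in every library. VIM had 2340 to 3880 FPKM in MiaPaCa2 and 1400 to 2730 in PANC1. The markers of acinar, endocrine and blood cells summed to at most 0.390 FPKM in any library, the fibroblast markers to at most 4.77 and the endothelial markers to at most 1.72.

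In the control cultures, HSPA8 had the highest level of the 10 genes in both lines. The FPKM scale, which divides by transcript length, is the one used here to compare levels between genes. Mean control FPKM in MiaPaCa2 was 1959 for HSPA8, 981 for HSP90AA1, 621 for HSPB1, 210 for HSPH1, 207 for DNAJB1, 180 for DNAJA1, 87.7 for HSF1, 69.6 for HSPA1B, 59.5 for HSPA1A and 43.9 for BAG3 (n = 2 libraries each). HSPA8 stood at the 99.4th percentile of the genes above 1 FPKM and BAG3, the lowest member, at the 76.2th. The neighbours HSPH1 and DNAJB1 swapped places between the replicates, and the other 8 kept their places in both.

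In PANC1 the mean control FPKM was 1753 for HSPA8, 491 for HSPB1, 309 for HSP90AA1, 247 for DNAJA1, 119 for HSF1, 112.4 for DNAJB1, 110.8 for HSPA1A, 107.2 for HSPA1B, 103.4 for HSPH1 and 91.8 for BAG3. The first 4 kept their places in each replicate, while the 6 from HSF1 to BAG3 lay between 91.8 and 119 and were not in one order in replicates I and II. Ordered by counts normalized to library size (CPM), which ignore length, only 1 of the 10 members in each line kept its place, HSP90AA1 coming first in MiaPaCa2. FPKM of HSPA8 was listed at 0 in replicate I of PANC1 co-treatment, although 17806 reads were counted for it there, so the treatment comparisons below use counts.

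**Figure D1:**
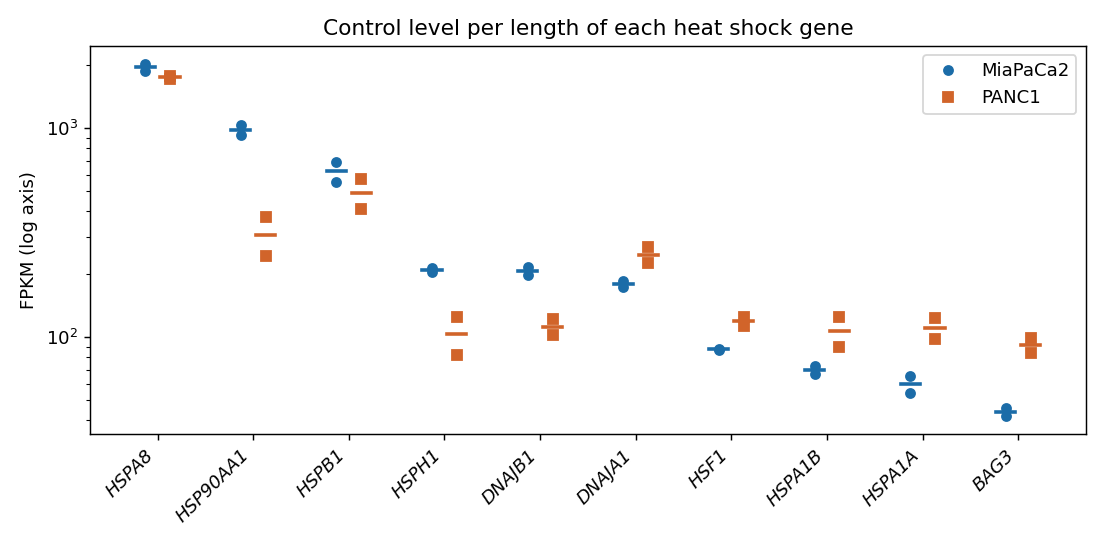
FPKM (log axis) of the 10 genes in the control cultures of MiaPaCa2 and PANC1, with each replicate as a point and the mean of the 2 as a bar. HSPA8 leads in both lines (1959 and 1753 FPKM), HSP90AA1 stands at 981 in MiaPaCa2 and 309 in PANC1, and the lower members of PANC1 lie close together.

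The control cultures of the lines differed in 8 of the 10 genes, 4 higher in PANC1 and 4 lower, where 27.9% of all tested genes were called higher and 24.3% lower. A gene was called when its adjusted p from limma-voom (Benjamini-Hochberg over all genes tested) was at most 0.05, its log2 fold change was at least 0.4 in size and its mean FPKM exceeded 1 in the group named first, or in either control group for the lines. All levels from here on are TMM-normalized CPM, given for replicates I and II in that order, and folds are log2 ± standard error. In bulk RNA, fewer cells of a type and less RNA per cell cannot be told apart.

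HSP90AA1 (chromosome 14, 102547079 to 102606036, GRCh37) had 3488 and 3247 CPM in MiaPaCa2 controls against 859 and 1175 in PANC1 controls. The difference of -1.73 ± 0.15 (PANC1 against MiaPaCa2, adjusted p = 3.0e-07) was a 3.32-fold lower level in PANC1. DNAJB1 (chromosome 19, 14625581 to 14671203) stood at 488 and 509 CPM against 275 and 233, a difference of -0.98 ± 0.09 (adjusted p = 9.2e-07). HSPH1 (chromosome 13, 31709110 to 31736525), the exchange factor, had 390 and 366 CPM against 165 and 229 and differed by -0.95 ± 0.15 (adjusted p = 1.0e-04).

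BAG3 (chromosome 10, 121410892 to 121437331) was on the other side, with 128 and 139 CPM in MiaPaCa2 and 300 and 237 in PANC1, 0.99 ± 0.13 higher (adjusted p = 1.2e-05). HSPA1A had 21.9 and 30.3 CPM against 79.2 and 69.1, 1.52 ± 0.15 higher in PANC1 (adjusted p = 1.1e-06), while HSPA1B had 87.6 and 88.4 against 65.9 and 61.1, 0.48 lower on the fitted scale (-0.48 ± 0.10, adjusted p = 7.9e-04). These near-identical neighbours on chromosome 6 (31783320 to 31785723 and 31795515 to 31798031) were therefore also counted together, and the sum was 0.27 ± 0.10 higher in PANC1 (adjusted p = 0.0265), under the fold threshold. DNAJA1 (0.41 ± 0.10, adjusted p = 0.00200) was just past the threshold. HSF1 (0.60 ± 0.21, adjusted p = 0.0241) was called as higher in PANC1, but with the GC trend of each library removed it was -0.38 ± 0.07 (adjusted p = 1.7e-04), a turn of direction in the gene with the highest GC content of the 10 (65.4%). Without MiaPaCa2 control replicate I, MiaPaCa2 control replicate II or PANC1 control replicate I the HSF1 call was lost (0.49, adjusted p = 0.162, 0.65, adjusted p = 0.0613, and 0.33, adjusted p = 0.209), and the call of DNAJA1 was lost without either replicate II (0.36 each time). Without PANC1 control replicate II, HSPA1B also dropped under the fold threshold (-0.39).

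HSPA8 (chromosome 11, 122928197 to 122933938), with 3180 and 2952 CPM against 2866 and 2558, differed by -0.18 ± 0.08 (adjusted p = 0.0480), and HSPB1 (chromosome 7, 75931990 to 75933612), with 202 and 256 against 241 and 162, by -0.21 ± 0.24 (adjusted p = 0.460), its values overlapping between the lines. After GC correction HSPA8 and HSPB1 were also called as lower in PANC1 (-0.50 and -1.06), where the median of all genes moved to -0.24. The correction also moved HSPA1B to -1.01, BAG3 to 0.55 and HSPA1A to 0.93, and DNAJA1 lost its call (0.34), so that 2 members were called higher and 6 lower, against 57.7% of all genes in either direction.

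**Figure D2:**
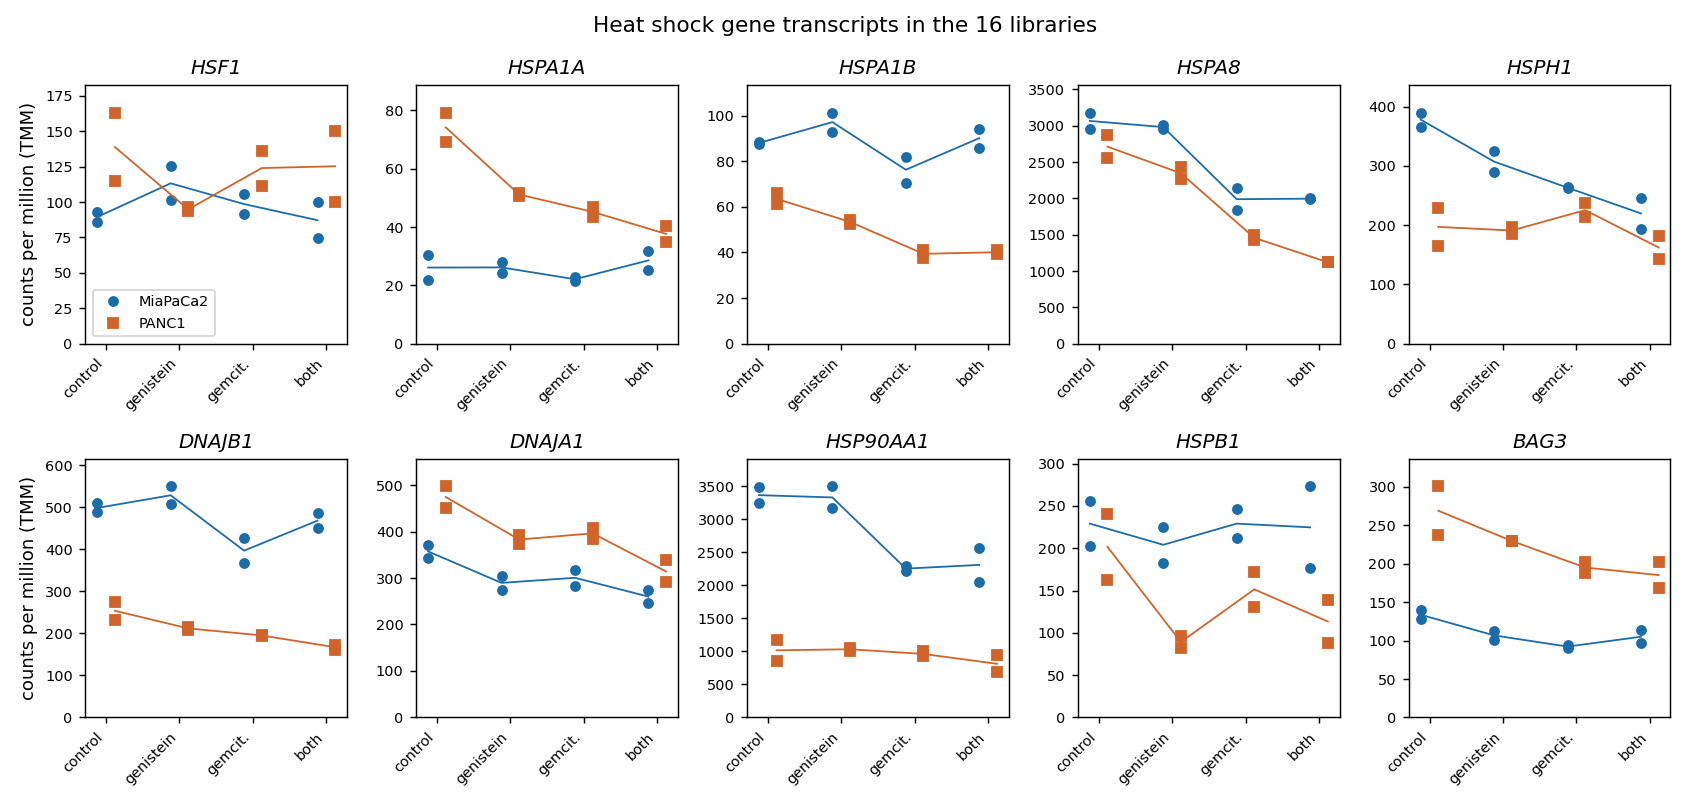
TMM-normalized CPM of each of the 10 genes in the 16 libraries, 1 panel per gene, by treatment and line, with replicates as points and lines joining the means of 2. HSPA8 falls from 3180 and 2952 to 1836 and 2142 CPM with gemcitabine in MiaPaCa2 and from 2866 and 2558 to 1423 and 1491 in PANC1.

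Gemcitabine lowered HSPA8 in both lines, and no member was called higher with it in either. In MiaPaCa2, 4 of the 10 genes fell (HSPA8, HSP90AA1, HSPH1 and BAG3) against 14.6% of all genes called lower, and 0 rose against 15.0% called higher. The median log2 fold change was -0.35 over the members and -0.01 over all genes. In PANC1, 3 of the 10 fell (HSPA8, HSPA1A and HSPA1B) against 3.03% of all genes, and 0 rose against 4.49%, with medians of -0.33 and 0.03. In both lines limma-voom gave 0 members that were higher at an unadjusted p under 0.05, and edgeR and DESeq2 also called 0 higher.

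HSPA8, the constitutive HSP70, fell in MiaPaCa2 from 3180 and 2952 CPM to 1836 and 2142, a log2 fold change of -0.68 ± 0.08 (37.6% lower, adjusted p = 4.8e-05). In PANC1 it fell from 2866 and 2558 to 1423 and 1491, by -0.84 ± 0.06 (44.3% lower, adjusted p = 0.00101). The treated libraries lay below both controls in each line. The difference of these responses, PANC1 minus MiaPaCa2, was -0.26 with a 95% interval of -0.50 to -0.02 and did not pass the adjustment (adjusted p = 0.127).

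HSP90AA1 fell in MiaPaCa2 from 3488 and 3247 CPM to 2215 and 2294 (-0.63 ± 0.10, 35.5% lower, adjusted p = 4.6e-04), with no overlap. In PANC1 its 4 values interleaved, at 859 and 1175 in controls and 924 and 1000 with gemcitabine, and the fold change was -0.03 ± 0.19 (adjusted p = 0.932). The difference between the lines, 0.50 (95% interval 0.04 to 0.97, adjusted p = 0.126), was not called. HSP90AA1 is the inducible cytosolic HSP90, and its constitutive relative HSP90AB1 is described with the co-chaperones further on.

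HSPH1 fell in MiaPaCa2 from 390 and 366 CPM to 264 and 263 (-0.58 ± 0.11, adjusted p = 0.00153). In PANC1 it had 165 and 229 CPM in controls and 214 and 237 with gemcitabine (0.24 ± 0.19, adjusted p = 0.463), so the groups overlapped. This was one of only 2 members for which the responses of the lines differed by the test of the difference itself, at 0.72 ± 0.22 (95% interval 0.25 to 1.19, adjusted p = 0.0406), where 15.3% of all genes did. The call of that difference was lost without any 1 of 7 of the 8 libraries compared, all but PANC1 control replicate II (0.52 to 0.82, with adjusted p from 0.0631 to 0.153), and after GC correction it was 0.23 ± 0.08 (adjusted p = 0.0393).

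BAG3 fell in MiaPaCa2 from 128 and 139 CPM to 90.2 and 94.1 (-0.59 ± 0.10, adjusted p = 5.9e-04). In PANC1 it had 300 and 237 CPM in controls and 202 and 188 with gemcitabine. That was -0.40 ± 0.12 with adjusted p = 0.0750, and it was not called although the groups did not overlap. BAG3 ties the HSP70 system to HSPB1, which had 202 and 256 CPM in controls and 246 and 212 with gemcitabine in MiaPaCa2 (-0.04 ± 0.17) and 241 and 162 against 172 and 130 in PANC1 (-0.34 ± 0.23, adjusted p = 0.387).

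The inducible HSP70 genes fell in PANC1. HSPA1A had 79.2 and 69.1 CPM in controls and 46.9 and 43.5 with gemcitabine (-0.66 ± 0.11, adjusted p = 0.0146), and HSPA1B had 65.9 and 61.1 against 37.7 and 41.1 (-0.64 ± 0.11, adjusted p = 0.0145). Counted together they fell by 0.65 (-0.65 ± 0.09, adjusted p = 0.00812). Both single calls were lost without gemcitabine replicate I (-0.71 for HSPA1A with adjusted p = 0.105, and -0.57 for HSPA1B with adjusted p = 0.141) or replicate II (adjusted p = 0.168 and 0.120), leaving 1 call, and without PANC1 control replicate II 5 members were called. In MiaPaCa2 HSPA1A had 21.9 and 30.3 CPM against 22.8 and 21.4 (-0.26 ± 0.16, adjusted p = 0.209) and HSPA1B 87.6 and 88.4 against 70.5 and 82.0 (-0.26 ± 0.10, adjusted p = 0.0511). For HSPA1B the difference between the lines was -0.47 ± 0.14 (adjusted p = 0.0426), for the sum of the pair -0.48 ± 0.14 (adjusted p = 0.0360) and for HSPA1A -0.49 ± 0.22 (adjusted p = 0.140). The HSPA1B difference was not called without any 1 of 6 of the 8 libraries, all but MiaPaCa2 gemcitabine replicate I and PANC1 control replicate II, and after GC correction it was -0.01 ± 0.18 (adjusted p = 0.980).

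The HSP40 genes moved less than the fold threshold before GC correction. DNAJB1 had 488 and 509 CPM in MiaPaCa2 controls and 366 and 427 with gemcitabine (-0.39 ± 0.08, adjusted p = 0.00361), and 275 and 233 against 196 and 194 in PANC1 (-0.32 ± 0.09, adjusted p = 0.0597). DNAJA1 (chromosome 9, 33025271 to 33039905) had 370 and 344 CPM against 283 and 318 in MiaPaCa2 (-0.31 ± 0.10, adjusted p = 0.0231) and 452 and 497 against 384 and 408 in PANC1 (-0.22 ± 0.11, adjusted p = 0.251). In each of these 4 comparisons both treated libraries lay under both controls. The share of all genes separated in this way was not counted, here or elsewhere, so a lack of overlap is a description and not a test.

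HSF1 itself had 85.9 and 93.1 CPM in MiaPaCa2 controls and 105.5 and 91.7 with gemcitabine (0.09 ± 0.13, adjusted p = 0.634), and 163 and 114.6 against 136 and 111.6 in PANC1 (-0.09 ± 0.20, adjusted p = 0.828). The groups overlapped in both lines. These are RNA levels, and the activity of the factor was not measured.

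In MiaPaCa2 the GC slope of the libraries moved with gemcitabine, and the comparison was repeated with each library's GC trend removed. HSPA8 (-0.80 ± 0.06), HSP90AA1 (-0.64 ± 0.07) and BAG3 (-0.84 ± 0.07) were then again called lower. HSPH1, which has the lowest GC content of the 10 (38.1%), was -0.24 ± 0.06 (adjusted p = 0.00385) and no longer past the fold threshold. DNAJB1 (-0.62), HSPA1A (-0.60), HSPA1B (-0.57), HSPB1 (-0.52) and HSF1 (-0.46, a turn from 0.09) passed, which made 8 called lower and 0 higher, where 28.8% of all genes were called in either direction. Every share of all genes given after GC correction counts both directions together, so it does not match a count of lower members alone. In PANC1 the same correction added DNAJA1 (-0.43 ± 0.06, adjusted p = 0.00141), for 4 members called lower against 18.6% of all genes in either direction. The difference between the lines was then called for HSF1 (0.42), DNAJB1 (0.33), DNAJA1 (-0.30), HSP90AA1 (0.51, adjusted p = 0.0400) and BAG3 (0.48) besides HSPH1, against 26.6% of all genes.

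**Figure D3:**
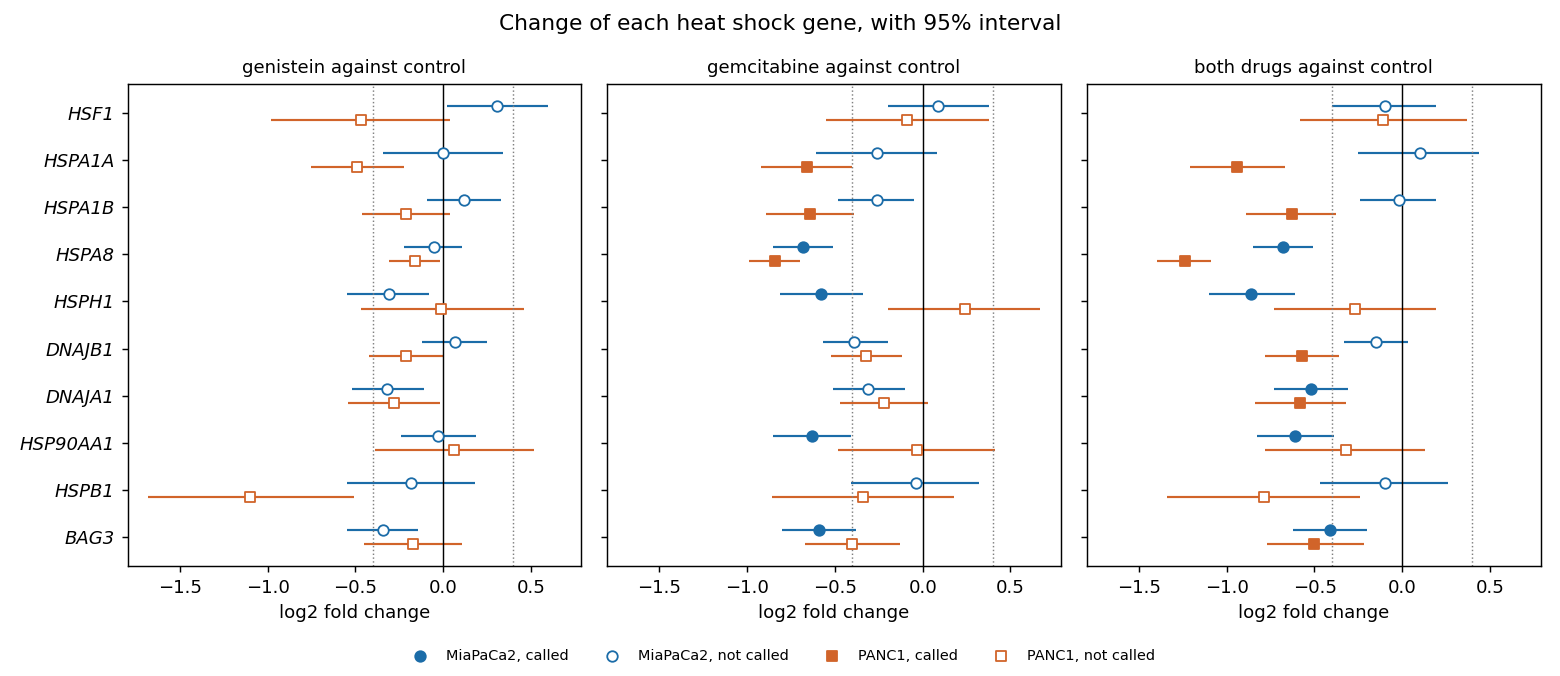
Log2 fold change with 95% interval for the 10 genes against control in MiaPaCa2 and PANC1 (n = 2 libraries per group), with genistein, gemcitabine and co-treatment in separate panels, called genes filled and dotted lines at ±0.4. With gemcitabine HSPA8 lies at -0.68 and -0.84, and in co-treatment at -0.68 and -1.24.

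Gemcitabine was also compared on top of genistein, with co-treatment set against genistein alone. In MiaPaCa2 4 members fell (HSPA8, HSP90AA1, HSPH1 and HSF1), against 14.9% of all genes, and 0 rose, against 16.6%. In PANC1 1 fell (HSPA8), against 4.31%, and 0 rose, against 3.87%. No member was higher at an unadjusted p under 0.05 in limma-voom in either line, and edgeR and DESeq2 called 0 higher, while each called 3 lower in PANC1 (HSPA8, HSPA1A and HSPA1B).

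HSPA8 went from 2956 and 3007 CPM to 2005 and 1987 in MiaPaCa2 (-0.62 ± 0.08, adjusted p = 6.7e-05) and from 2262 and 2430 to 1124 and 1119 in PANC1 (-1.08 ± 0.07, 52.7% lower, adjusted p = 9.6e-04). HSP90AA1 went from 3166 and 3500 to 2571 and 2051 in MiaPaCa2 (-0.58 ± 0.10, adjusted p = 6.4e-04) and HSPH1 from 289 and 325 to 246 and 193 (-0.54 ± 0.11, adjusted p = 0.00218). These last 2 rested on co-treatment replicate II, without which they were -0.38 and -0.33 and 2 calls remained. The HSPH1 call was also lost after GC correction (-0.32 ± 0.06, adjusted p = 5.3e-04, under the fold threshold) and on the FPKM scale (-0.27). HSF1 had 125 and 101.3 CPM with genistein and 74.6 and 99.8 in co-treatment (-0.41 ± 0.13, adjusted p = 0.0255). After GC correction HSF1 was 50.0% lower (adjusted p = 3.3e-07). Without that correction its call was lost in models of only the libraries compared or of all 16 (adjusted p up to 0.245), without genistein replicate I (-0.29, adjusted p = 0.137) or co-treatment replicate I (-0.23, adjusted p = 0.142), and with library size alone as the scale, which moved the median of all genes by about 0.10, it was under the fold threshold. The GC correction added calls of HSPA1B (-0.47), DNAJB1 (-0.45) and HSPB1 (-0.44) in MiaPaCa2 and of HSPA1A (-0.71), HSPA1B (-0.63), DNAJB1 (-0.45) and BAG3 (-0.44) in PANC1, which made 6 and 5 lower against 33.9% and 22.9% of all genes in either direction.

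Before GC correction, co-treatment against control gave the largest number of member calls among the drug comparisons of each line. After it, MiaPaCa2 had 8 calls with gemcitabine alone and 6 in co-treatment. In MiaPaCa2 5 of 10 fell (HSPH1, HSPA8, HSP90AA1, DNAJA1 and BAG3) against 20.2% of all genes, and 0 rose against 20.3%. In PANC1 6 of 10 fell (HSPA8, HSPA1A, HSPA1B, DNAJA1, DNAJB1 and BAG3) against 6.90% of all genes, and 0 rose against 10.2%. The medians were -0.28 in MiaPaCa2 and -0.57 in PANC1, beside -0.01 and 0.01 over all genes. At an unadjusted p under 0.05 limma-voom gave 0 members that were higher, and edgeR and DESeq2 called 0 higher.

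HSPA8 stood at 2005 and 1987 CPM in MiaPaCa2 co-treatment against 3180 and 2952 in controls (-0.68 ± 0.08, 37.5% lower, adjusted p = 1.8e-05). In PANC1 it stood at 1124 and 1119 against 2866 and 2558 (-1.24 ± 0.07, 57.8% lower, adjusted p = 1.5e-04), the largest fall of any member in any drug comparison. Its call held in both lines without any 1 of the libraries.

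In MiaPaCa2 HSPH1 fell from 390 and 366 CPM to 246 and 193 (-0.86 ± 0.11, 44.7% lower, adjusted p = 4.8e-05). HSP90AA1 fell from 3488 and 3247 to 2571 and 2051 (-0.61 ± 0.10, adjusted p = 2.8e-04), and DNAJA1 from 370 and 344 to 274 and 246 (-0.52 ± 0.10, adjusted p = 6.6e-04). With the GC trend removed HSP90AA1 was still called (-0.66), while HSPH1 (-0.36 ± 0.06) and DNAJA1 (-0.27 ± 0.06), both of low GC content, had adjusted p of 1.7e-04 and 0.00208 but were under the fold threshold. The correction added calls of HSF1 (-0.65 ± 0.07, adjusted p = 9.0e-06), HSPB1 (-0.60 ± 0.08, adjusted p = 4.9e-05) and DNAJB1 (-0.47 ± 0.08, adjusted p = 1.4e-04) in MiaPaCa2, for 6 lower against 40.8% of all genes in either direction. BAG3, with 128 and 139 CPM against 96.5 and 113.5, was just over the fold threshold (-0.41 ± 0.10, adjusted p = 0.00360, and -0.74 after GC correction). It dropped under the threshold without co-treatment replicate I (-0.31) or control replicate II (-0.35).

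In PANC1 HSPA1A fell from 79.2 and 69.1 CPM to 35.0 and 40.3 (-0.94 ± 0.12, adjusted p = 0.00211) and HSPA1B from 65.9 and 61.1 to 39.3 and 40.9 (-0.63 ± 0.11, adjusted p = 0.00715), and their sum by 0.79 (-0.79 ± 0.09, adjusted p = 0.00187). The HSP40 genes passed the fold threshold here. DNAJA1 fell from 452 and 497 to 338 and 290 (-0.58 ± 0.11, adjusted p = 0.0110) and DNAJB1 from 275 and 233 to 161 and 173 (-0.57 ± 0.09, adjusted p = 0.00519). BAG3 fell from 300 and 237 to 168 and 203 (-0.50 ± 0.12, adjusted p = 0.0250), a call lost without co-treatment replicate I (-0.38, adjusted p = 0.112) or control replicate I (-0.40, adjusted p = 0.0509).

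HSPB1, the small heat shock protein, had 241 and 162 CPM in PANC1 controls and 88.5 and 138 in co-treatment. It missed the threshold at -0.79 ± 0.24 (adjusted p = 0.0537), but it was called in 5 alternatives, which were DESeq2, no low-count filter, the model of 16 libraries and the GC correction with and without the block (-0.71 ± 0.07, adjusted p = 8.1e-05, without it). It was also called in 2 of the 4 fits that left out a library, those without co-treatment replicate II or control replicate II, and the 4 ran from -1.11 to -0.49. HSP90AA1 was called in PANC1 after GC correction too (-0.44 ± 0.14, adjusted p = 0.0295), for 8 lower against 30.6% of all genes in either direction. In MiaPaCa2 HSPB1 had 202 and 256 CPM in controls against 176 and 273 in co-treatment, where the groups overlapped (-0.10 ± 0.17). The members that had no call in either line in co-treatment before GC correction were HSPB1 and HSF1, and HSF1 had 74.6 and 99.8 CPM in MiaPaCa2 (-0.10 ± 0.14) and 100 and 150 in PANC1 (-0.11 ± 0.21).

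Genistein on its own gave 0 calls among the members in either line, where 8.31% of all genes were called in MiaPaCa2 and 0.0591% in PANC1. In MiaPaCa2 limma-voom put 4 members at an unadjusted p under 0.05 (HSF1, HSPH1, DNAJA1 and BAG3), as were 27.3% of all genes, and edgeR and DESeq2 called 0. BAG3 had 128 and 139 CPM in controls and 112.4 and 101.04 with genistein (-0.34 ± 0.10, adjusted p = 0.0376), which passed the p but not the fold threshold, and it passed both after GC correction (-0.42). HSPA8 had 3180 and 2952 against 2956 and 3007, with a 95% interval of -0.22 to 0.11 for the log2 fold change, and HSP90AA1 3488 and 3247 against 3166 and 3500 (-0.24 to 0.19).

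In PANC1 5 members had an unadjusted p under 0.05 with genistein (HSPA1A, HSPA8, DNAJB1, DNAJA1 and HSPB1), as did 19.2% of all genes, edgeR called 0 and DESeq2 called 2. HSPB1 had 241 and 162 CPM in controls and 96.2 and 82.2 with genistein, so the groups did not overlap. Its log2 fold change of -1.10 ± 0.25 (95% interval -1.68 to -0.51) had an adjusted p of 0.119 and was past the threshold in DESeq2, in models of only the libraries compared or of all 16, and after GC correction (-0.54). HSPA1A had 79.2 and 69.1 against 50.8 and 51.5 (-0.49 ± 0.12, adjusted p = 0.121) and was past it in DESeq2 and in the model of 16 libraries. The median was -0.21 over the members and 0.05 over all genes in PANC1, and -0.04 and 0.00 in MiaPaCa2.

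Genistein added to gemcitabine, with co-treatment set against gemcitabine alone, also gave 0 member calls in both lines, against 5.88% of all genes in MiaPaCa2 and 0.0177% in PANC1. At an unadjusted p under 0.05 there were 5 members in MiaPaCa2 and 4 in PANC1, beside 23.7% and 13.4% of all genes, and edgeR and DESeq2 called 0 in both. HSPA8 in PANC1 had 1423 and 1491 CPM with gemcitabine and 1124 and 1119 in co-treatment, without overlap (-0.40 ± 0.07, 95% interval -0.56 to -0.24, adjusted p = 0.117). After GC correction it was called there (-0.49), as was HSPB1 (-0.46), against 7.63% of all genes. In MiaPaCa2 HSPA8 had 1836 and 2142 against 2005 and 1987 (0.00 ± 0.08). Without MiaPaCa2 co-treatment replicate I, 2 members were called there, HSPA1A as higher and HSPH1 as lower.

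The interaction asks whether the change with gemcitabine differed with genistein present. It was called by adjusted p alone, and 0 members passed in MiaPaCa2, against 0.0249% of all genes, and 0 in PANC1, against 0% of all genes. HSF1 (-0.50 ± 0.19, adjusted p = 0.512) and BAG3 (0.52 ± 0.14, adjusted p = 0.344) had an unadjusted p under 0.05 in MiaPaCa2 and HSPA8 (-0.23 ± 0.10, adjusted p = 0.734) in PANC1, where 8.38% and 4.92% of all genes did, and edgeR and DESeq2 called 0 in both. After GC correction HSF1 (-0.54) and BAG3 (0.52) passed in MiaPaCa2 (adjusted p = 0.0410 each), against 0.743% of all genes. For HSPA8 in PANC1 the interval ran from -0.45 to -0.02. The lines' responses to genistein were likewise compared by the adjusted p of their difference, with 0 members called against 0.0336% of all genes, and for genistein added to gemcitabine 0 against 0.106%. At an unadjusted p under 0.05 there were 5 and 3 members, beside 11.5% and 6.99% of all genes, the strongest being HSPA8 (-0.39 ± 0.12) and DNAJB1 (-0.47 ± 0.14) for the latter, which both passed after GC correction (-0.43 and -0.50), and edgeR and DESeq2 called 0 in both.

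Reads from HSPA1A and HSPA1B cannot always be told apart. Of the 50-base windows of their canonical transcripts, 75.1% of 2351 in HSPA1A and 71.6% of 2468 in HSPA1B occurred elsewhere in GRCh37, the same 1766 windows shared by the pair, and reads with several alignments were removed before counting. FPKM of the pair were nearly equal in the PANC1 controls (124 and 97.8 for HSPA1A, 124 and 90.1 for HSPA1B). The HSPA1A transcript ENST00000458062 was given 27.4 to 41.5 FPKM in the MiaPaCa2 libraries and at most 0.0241 in PANC1, while ENST00000375651 had 20.9 to 44.6 and 37.2 to 119. Other members were affected less: 24.6% of the windows of HSP90AA1, 23.2% of HSPA8, 16.6% of HSPB1, 5.42% of DNAJA1, 4.29% of DNAJB1 and 0.212% of HSPH1 occurred elsewhere, and 0 of HSF1 and BAG3. The exons of HSPA1B overlap ENSG00000285565 on the same strand over 36.55% of their length in the annotation used here. Those of HSPA8 overlap SNORD14C and SNORD14D on the same strand over 3.61% and a gene on the opposite strand over 11.45%. On the opposite strand, DNAJB1 exons overlap TECR and MIR639 over 6.85%, and HSP90AA1 exons overlap WDR20 over 3.87%. HSF1 exons overlap DGAT1 and another gene there over 2.58%. The annotation release and the strand setting of the counts were not given in the sources used here.

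Transcript FPKM showed 1 main form for several members. ENST00000216281 made up 93.3 to 98.2% of HSP90AA1 in the MiaPaCa2 libraries and 83.6 to 97.2% in PANC1, and ENST00000369085 made up 96.0 to 99.1% and 88.8 to 99.5% of BAG3. HSPA8 was split over 24 annotated forms, with ENST00000227378 at 39.2 to 50.0% in MiaPaCa2 and 43.7 to 54.3% in the 7 PANC1 libraries with a value above 0. In HSPH1 the form with the largest share, 31.3 to 45.1% and 36.3 to 44.9%, was ENST00000469538, which is annotated as a retained intron.

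Further chaperone genes were taken from lists by compartment and partner. The counts and medians of these lists are without GC correction, which changed several member calls, and they were not repeated with it. Beside their counts stand the shares of all genes called lower, 14.6% in MiaPaCa2 and 3.03% in PANC1 with gemcitabine and 20.2% and 6.90% in co-treatment, and those called higher, 15.0%, 4.49%, 20.3% and 10.2% in the same order. Among 15 HSP90 genes and co-chaperones, gemcitabine lowered 3 and raised 0 in MiaPaCa2 and lowered 2 and raised 2 in PANC1, and co-treatment lowered 9 and raised 1 in MiaPaCa2 and lowered 5 and raised 1 in PANC1. HSP90AB1, the constitutive cytosolic HSP90, fell with gemcitabine in MiaPaCa2 (-0.88 ± 0.07, adjusted p = 3.8e-06) and PANC1 (-0.74 ± 0.06, adjusted p = 0.00101), and in co-treatment (-0.82 and -1.05). STIP1, which bridges HSP70 and HSP90, fell in MiaPaCa2 with gemcitabine (-0.60) and in co-treatment (-0.80), and in PANC1 in co-treatment (-0.69). The HSP90 co-chaperone FKBP5, also a target of steroid receptors, rose in PANC1 by 0.86 with gemcitabine and by 0.81 in co-treatment, and in MiaPaCa2 by 0.43 in co-treatment and by 0.40 with genistein. The list's medians were -0.31 and -0.11 with gemcitabine and -0.46 and -0.23 in co-treatment, beside -0.01, 0.03, -0.01 and 0.01 over all genes.

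Among the 8 subunits of the CCT chaperonin, which folds actin and tubulin, gemcitabine lowered 3 in MiaPaCa2 and 1 in PANC1 and co-treatment lowered 5 and 4, with 0 higher in each. Their medians were -0.35 and -0.15 with gemcitabine and -0.54 and -0.38 in co-treatment. CCT6A fell in co-treatment in MiaPaCa2 (-0.92 ± 0.09, adjusted p = 4.9e-06) and in PANC1 (-0.50 ± 0.14, adjusted p = 0.0427). Of 5 mitochondrial chaperones, gemcitabine lowered 3 in MiaPaCa2 (HSPE1 at -0.72, HSPD1 at -0.52 and HSPA9 at -0.46) and 0 in PANC1, and co-treatment lowered 3 and 2, with medians of -0.46 and -0.26 and of -0.61 and -0.18. The 5 chaperones of the endoplasmic reticulum had 0 calls in co-treatment in both lines and in MiaPaCa2 with gemcitabine, and 1 in PANC1, where DNAJB9 rose (adjusted p = 0.0375), and their medians lay between 0.02 and 0.20.

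Other known HSF1 targets were mixed, and in MiaPaCa2 with gemcitabine their called share was under that of all genes in each direction. Of 12 tested in MiaPaCa2, 1 fell with gemcitabine (CHORDC1, -1.11 ± 0.18) and 1 rose (DNAJA4, 0.84 ± 0.12), and of 13 tested in PANC1 1 fell (HSPA1L, -0.93 ± 0.16) and 3 rose (DNAJA4, 0.63, HSPB8, 0.66, and ZFAND2A, 0.75). In co-treatment 2 fell and 3 rose in MiaPaCa2, with CHORDC1 at -1.82 ± 0.20, and 1 fell and 3 rose in PANC1, with HSPA1L at -1.59 ± 0.18. Their medians were 0.01 and 0.27 with gemcitabine and -0.06 and -0.10 in co-treatment, MiaPaCa2 first. HSPA1L lies beside HSPA1A and HSPA1B and resembles them in sequence. Of 8 further cytosolic HSP70 and HSP40 genes, gemcitabine lowered 1 and raised 2 in MiaPaCa2 (HSPA4 at -0.72) and called 0 in PANC1, and co-treatment lowered 5 and raised 3 in MiaPaCa2 and lowered 2 and raised 2 in PANC1. Their medians were -0.19 and 0.05, then -0.49 and 0.02.

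Of the HSF family and its regulators, IER5, known as an activator of HSF1, was the only one called with gemcitabine or in co-treatment against control. It rose in MiaPaCa2 by 1.46 ± 0.12 with gemcitabine (adjusted p = 5.0e-06) and by 2.40 ± 0.11 in co-treatment (adjusted p = 5.3e-08), and in PANC1 by 0.47 ± 0.13 in co-treatment (adjusted p = 0.0342). With genistein alone, MiaPaCa2 had 1 call higher and 1 lower in this list of 4 tested (IER5 at 1.01 and HSF4 at -0.90), and PANC1 had 0 calls in any of these lists.

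**Figure D4:**
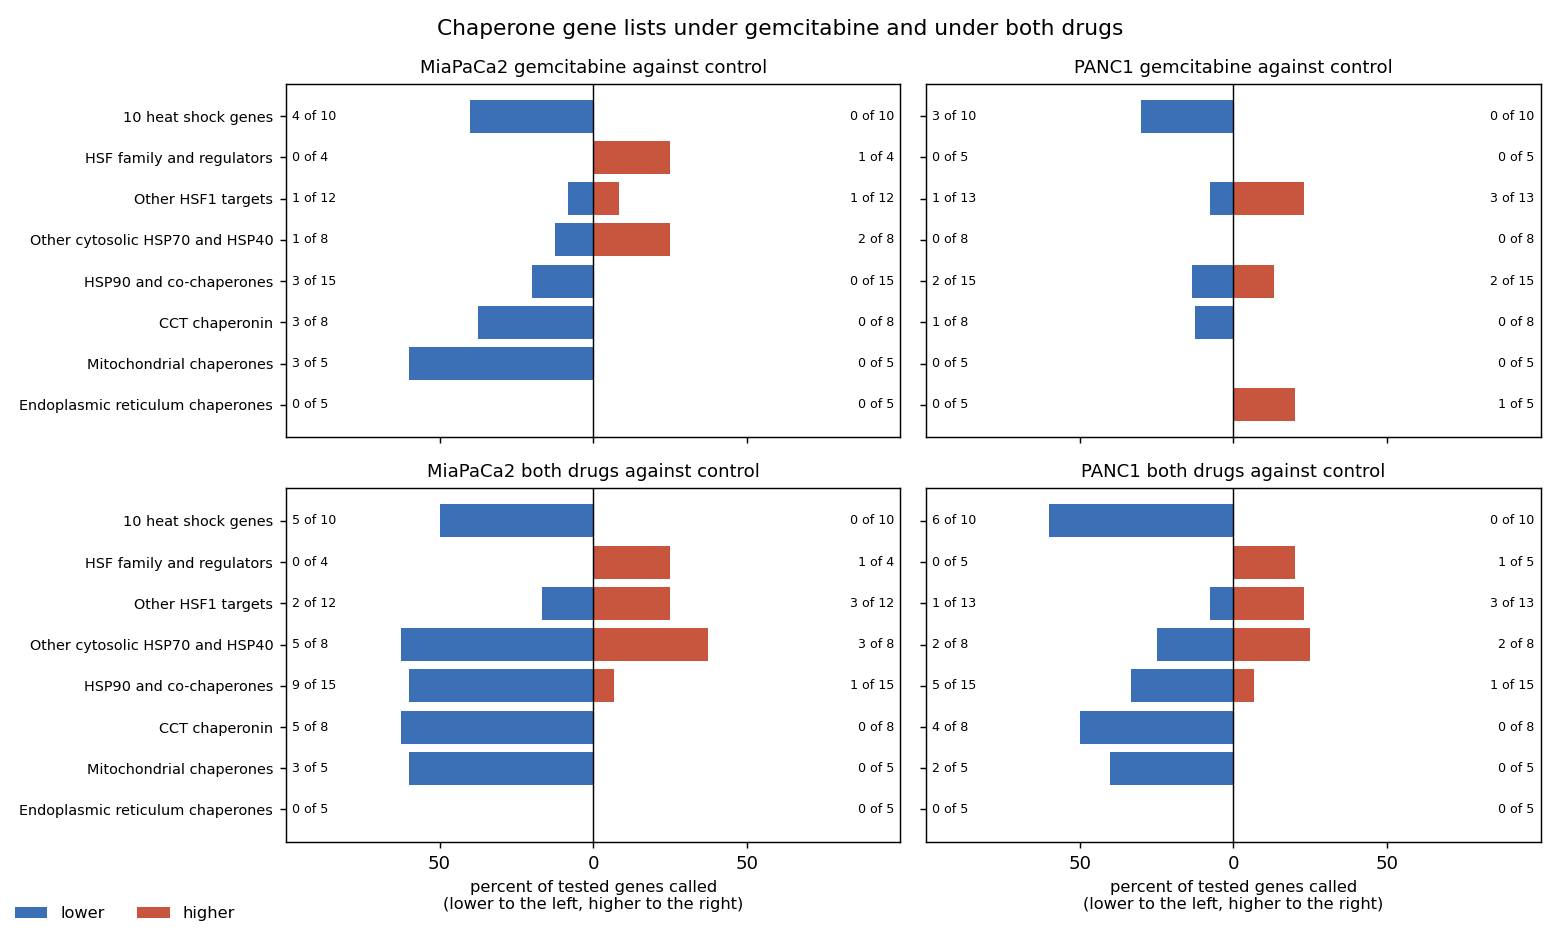
Percent of the tested genes of each chaperone list called lower (left of 0) or higher (right of 0) with gemcitabine and in co-treatment against control, by line, without GC correction. The members and the HSP90, CCT and mitochondrial lists extend mostly to the left, and the other HSF1 targets to both sides. PANC1 with gemcitabine is an exception, where the HSP90 list had 2 lower and 2 higher and the mitochondrial list 0 calls.

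Over the 8 group means, centred within each line, the mean profile of the 9 chaperone members was highest in the controls (mean z 0.86 in MiaPaCa2 and 1.17 in PANC1) and lowest with gemcitabine in MiaPaCa2 (-0.74) and in co-treatment in PANC1 (-1.19). Among 7379 genes that passed the filter in both lines and varied, those with the most similar profile were SLC25A37 (Pearson r = 0.981), RP1-203P18.1 (0.977), SERTAD3 (0.977), ANKRD11 (0.976) and TFAP2A (0.972). The most opposite were FEZ1 (-0.982), TREX1 (-0.979) and CADM4 (-0.979). These are descriptions over 8 points that share libraries, depth and base composition, and the top 5 shared 1 gene with the top 5 by Spearman rank and 2 with the top 5 over the 16 libraries.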

How the data were processed

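Poly(A) RNA of 16 cultures was sequenced as 50-base single reads from a stranded kit. The authors aligned reads to GRCh37 with TopHat2 2.0.4, removed reads with several alignments with Picard 1.29, and deposited counts per gene from HTSeq 0.6.1 and FPKM per gene and transcript from Cufflinks 2.1.1. The annotation release and the strand setting of the counts were not given in the sources used here. All columns were matched to samples by name (0 columns without a sample).

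The 10 members, the further lists and the tests were chosen with earlier results of these data known. The genes named in the text are the members and, after the count of its list, genes of each list, plus the 5 most and 3 least similar profiles. The counts went into limma-voom, from limma 3.58.1 under R 4.3.3, after TMM scaling and filterByExpr of edgeR 4.0.16, with the 8 libraries of a line in one model, or all 16 for comparisons of lines. Following the methods of the study, called genes reached 0.05 after adjustment, moved by 0.4 or more on the log2 scale and exceeded 1 FPKM. Interactions and differences between lines needed the adjusted p alone. Intervals are 95% intervals of the fitted value and cover the spread between cultures of 2 per group. Depth of 12943482 to 31991860 counts gave each member at least 340 reads in every library.

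Alternatives were edgeR's quasi-likelihood test, DESeq2 1.42.0, other size factors, no filter, FPKM with a pseudocount of 1, the replicate number as a block, other libraries in the model, a GC correction (loess, span 0.3), the sum of HSPA1A and HSPA1B, adjusted p alone, and each replicate left out. Leaving out the FPKM failed at 0 was chosen after seeing the data. GC content and gene positions came from GENCODE v44 lifted to GRCh37, and promoters from RefSeq. The scripts were tested on simulated data. Same-numbered replicates shared no pairing in the labels.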

Additional observations from a re-analysis of the deposited data

Results flagged for a closer look

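The response to gemcitabine differed between the lines, by the test of the difference itself, for 2 members. The difference, PANC1 minus MiaPaCa2, was 0.72 for HSPH1, which fell in MiaPaCa2 from 390 and 366 to 264 and 263 CPM and had 165 and 229 against 214 and 237 CPM in PANC1. It was -0.47 for HSPA1B, which fell in PANC1 from 65.9 and 61.1 to 37.7 and 41.1 CPM and had 87.6 and 88.4 against 70.5 and 82.0 CPM in MiaPaCa2. Neither passed with library size alone, with the replicate block or on the FPKM scale. After GC correction HSPH1 was 0.23 ± 0.08 (adjusted p = 0.0393 from limma-voom) and HSPA1B was -0.01 ± 0.18 (adjusted p = 0.980).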

How the results depend on the processing

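Of 199 recomputed summaries of the members (counts of calls, order of levels), 164 stayed within 1.5 times the reported one. No alternative and no left-out library gave a member called higher in either line for gemcitabine against control, gemcitabine added to genistein or co-treatment against control, while 1 member was called higher for genistein added to gemcitabine in MiaPaCa2 without co-treatment replicate I. In the order used below for drug comparisons (MiaPaCa2 first), the GC correction, with or without the replicate block, moved genistein from 0 to 1 call in both lines, gemcitabine from 4 to 8 in MiaPaCa2, gemcitabine added to genistein from 1 to 5 and genistein added to gemcitabine from 0 to 2 in PANC1, and the difference between lines for genistein added to gemcitabine from 0 to 2. Without the block it gave 2 calls of interaction in MiaPaCa2. The difference between lines for gemcitabine went from 2 calls to 6 after GC correction, 4 with the block too, 1 without the low-count filter and 0 with library size alone, the replicate block or FPKM (with or without the failed value). The remaining PANC1 counts moved as follows. Genistein had 2 calls in DESeq2 and in the model of 16 libraries and 1 in that of only the libraries compared. Gemcitabine had 1 with the block or only the libraries compared, and 0 on FPKM (1 without the failed value). Gemcitabine added to genistein had 3 in edgeR and DESeq2, 2 with 16 libraries and 0 on FPKM. Co-treatment had 1 on FPKM (2 without the failed value) and 2 with only the libraries compared. Adjusted p alone gave 1 call for genistein in MiaPaCa2. The cause of these moves was not tested.

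Leaving out single replicates gave, in MiaPaCa2, 0 to 2 calls for genistein added to gemcitabine, 4 to 5 for gemcitabine, 2 to 4 for gemcitabine added to genistein and 4 to 5 for co-treatment. In PANC1 it gave 1 to 5 for gemcitabine, 1 to 1 for gemcitabine added to genistein and 5 to 7 for co-treatment. It gave 6 to 7 between control lines, 0 to 4 for the difference in gemcitabine response, and 0 in the other comparisons, where a group left with 1 library was assumed to vary like the others.

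Direction turned for HSF1 with gemcitabine in MiaPaCa2 (-0.46 after GC correction, -0.46 with the block), HSPB1 with gemcitabine added to genistein in MiaPaCa2 (-0.44 and -0.43), HSF1 between controls (-0.38 and -0.37) and in the gemcitabine difference between lines (0.42 and 0.42), and DNAJB1 in the latter (0.33 and 0.33). HSPA1B between controls turned on FPKM (0.60, and 0.60 without the failed value) and in the sum with HSPA1A (0.27). These turns are of members called in the reported fit or in the alternative. Members called in neither also changed sign, among them HSPA1A in MiaPaCa2 co-treatment (0.10, and -0.30 after GC correction). HSF1 with genistein in PANC1 did too (-0.47, and 0.21 after GC correction). For all of these, the cause was not tested. Ordered by CPM, 1 of 10 members kept its place in each line, and in PANC1 6 did by replicate I and 5 by replicate II alone.

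Deviations of same-numbered replicates correlated between -0.51 and 0.26, and the labels give no pairing. These correlations cannot exclude a pairing, because other differences between libraries, such as the GC slope, enter them too. The replicate block, with 1 call for PANC1 gemcitabine and 0 for the difference between lines, is therefore given as an alternative. Depth limits the members little, at 340 reads or more. With 2 cultures per group the spread between them is known poorly, which touches every p. Scaling by library size alone moved the median of all genes to 0.14, 0.15 and 0.17 in the PANC1 gemcitabine comparisons (alone, added to genistein, co-treatment), and the members' medians stayed below it (-0.22, -0.20 and -0.42).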
